A study of Mus musculus with 6 samples.

Results

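The genes described here encode enzymes of threonine, glycine, serine, folate one-carbon, methionine, polyamine, proline, glutamate and branched-chain amino acid metabolism. The 41 genes were taken by name from a list of such enzymes, and 36 of them had a named probe among the 21893 genes of the array. The list was made with earlier results of these data known. Tdh, Mat2a, Amd1, Pycr1 and Gls2 had no probe under those names in the annotation used and were not analysed here. A gene with several probes was read from the probe whose mean on the 6 arrays was highest.

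All samples came from the 46c line of mouse embryonic stem cells, of strain 129/Ola, in which a GFP reporter sits at the neural gene Sox1. The first group, ESC, was 3 samples of undifferentiated cells (day 0). The second group, NPC, was 3 samples taken at day 5 of differentiation in medium supplemented with NB27 and Neuro2 and sorted by flow cytometry on GFP; which GFP gate was kept is not stated in the labels. Both groups carry the reporter, and the series rests on this 1 line. By the design text, replicates are biological.

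Serine and glycine donate one-carbon units to folate, and these units are used to make purines, thymidylate and, through methionine, S-adenosylmethionine, the methyl donor of the cell. Mouse ES cells are known for drawing glycine and acetyl-CoA from threonine through the mitochondrial enzyme Tdh, and for their dependence on threonine. Polyamines are built from ornithine and decarboxylated S-adenosylmethionine, and proline and ornithine share a precursor made from glutamate.

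Signals are log2 values from single-colour arrays that had been quantile normalised, with all arrays running from 1.03 to 16.18 around a median of 5.32. Because array signals differ in scale from probe to probe, levels are compared only between groups for 1 probe, apart from the sums over marker lists. The number of arrays limits the precision. A change is NPC minus ESC in log2 units, given ± SE (n = 3 arrays in each group). Testing used limma, and its p-values were adjusted (Benjamini-Hochberg) over all 21893 genes, with a threshold of 0.05. A gene is said to have risen or fallen only where it passed this test. In these bulk samples, fewer cells of a type and less RNA per cell cannot be told apart.

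The labels of the groups were checked against cell type markers. All 6 ES cell markers fell, and 5 of 6 neural progenitor markers rose, among them Sox1, the gene of the sort, which is no finding. Of 6 neuron markers 5 rose, and their summed signal ran from 12.50 to 13.13 on the log2 scale in ESC and from 14.04 to 14.41 in NPC. With values under 6 set to 6, Dcx, Tubb3 and Elavl3 still passed, while Elavl4 (adjusted p = 0.110) and Neurog2 (0.297) did not. Elavl4 also passed in 0 of the 6 fits that left out 1 array. Of 5 trophectoderm markers 4 fell, with sums from 12.62 to 13.29 in ESC and from 9.21 to 9.93 in NPC. Endoderm marker sums went from 7.32 to 8.15 in ESC up to 10.53 to 11.15 in NPC, as Foxa2 and Cxcr4 rose while Sox17, Gata4, Gata6 and Afp did not pass. The sums of the glia, mesoderm and fibroblast lists overlapped between the groups, though single members changed. Such sums add probes of unlike scale and lean on the brightest ones, as the mesoderm sum does on Kdr, at 9.76 to 10.66. Olig2, Foxf1, Col1a1 and Col1a2 rose by 3.57, 2.62, 1.18 and 1.76, and Mesp1, Meox1 and Thy1 fell by 2.09, 2.39 and 3.06 on the log2 scale. With values under 6 set to 6, Col1a2 still passed (1.76), while Col1a1 (0.93) and Thy1 (-2.22) did not. Olig2 and Foxf1 then changed by 0.19 and 0.20 without passing, and no change was left for Mesp1, Meox1 and the trophectoderm marker Cdx2. The part of these cell types in the results on the enzymes was not tested.

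Of the 36 measured enzymes, 4 rose and 10 fell in NPC, together 38.9%, against 20.6% of all genes tested. The 10 that fell stand against a background of 9.54% lower, and the 4 that rose against 11.1% higher. The median change of the enzymes was -0.17, and that of all genes was 0.01. The replicate number was taken to pair the arrays, an assumption, and was used as a block in an alternative fit. With this block, 6 enzymes rose and 13 fell, where 18.9% of all genes were higher and 16.7% lower, 35.7% together. All 14 calls made without the block were made with it too. The 3 NPC arrays lay wholly above the 3 ESC arrays for 5 enzymes and wholly below them for 13, where 19.6% and 17.4% of all genes did so, 37% in either direction. Of the 14 calls, 7 were kept in each of the 6 fits that left out 1 array: Mthfd2l, Aldh18a1, Cbs, Cth, Srm, Glud1 and Got1. Over all 21893 genes, 4512 were called, and 2605 of these calls (11.9% of all genes) were kept in each of these fits. The counts were lowest without ESC replicate 1, with 2 rises and 5 falls, and without NPC replicate 1 or NPC replicate 2, with 2 rises and 6 falls each.

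**Figure D1:**
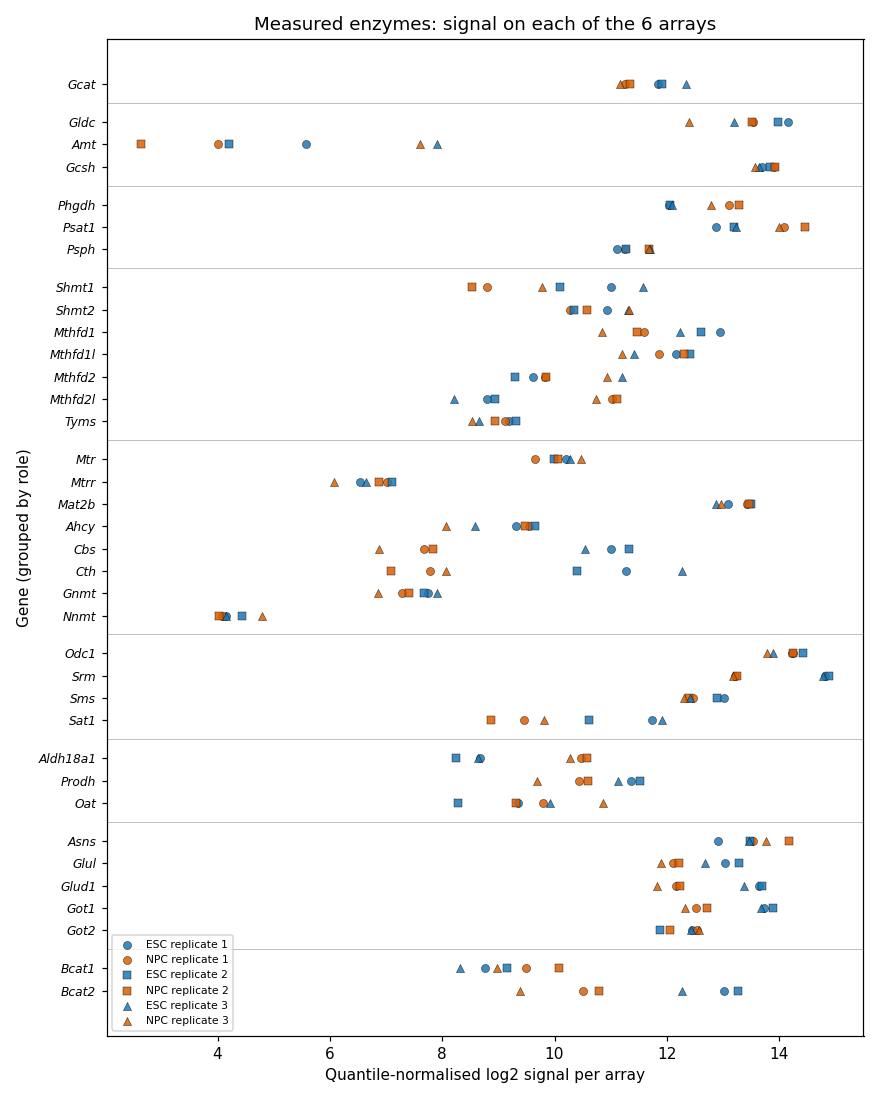
Quantile-normalised log2 signal (horizontal axis) of the 36 measured enzymes (rows, grouped by role) on each of the 6 arrays; colour gives the group and marker shape the replicate number. For Cbs, Cth, Srm and Bcat2 the 3 NPC arrays lie far to the left of the 3 ESC arrays, and for Mthfd2l and Aldh18a1 they lie to the right.

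The steepest falls were those of both enzymes of transsulfuration, which turn homocysteine into cysteine. Cbs, cystathionine beta-synthase, which joins homocysteine to serine, read 11.00, 11.33 and 10.54 in the 3 ESC samples and 7.67, 7.85 and 6.88 in the 3 NPC samples. The lowest ESC value lay well above the highest NPC value, and the change was -3.49 ± 0.35 (adjusted p = 0.00139), an 11.2-fold lower signal. Cth, cystathionine gamma-lyase, which releases cysteine from the product of Cbs, read 11.28, 10.40 and 12.27 in ESC and 7.79, 7.09 and 8.07 in NPC. Its groups did not overlap either, and it fell by 3.67 ± 0.53 (adjusted p = 0.00554), 12.7-fold on the linear scale. The other probe of Cth gave -3.72 with a wider error of 1.00 and did not pass over all named probes (adjusted p = 0.0579).

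The enzymes of the methionine cycle itself did not pass. Mtr, methionine synthase, differed by -0.09 ± 0.26, and its reactivating partner Mtrr by -0.11 ± 0.32. Mat2b, the regulatory subunit of the S-adenosylmethionine synthetase whose catalytic subunit is encoded by Mat2a, read between 12.87 and 13.49 on all 6 arrays. Ahcy, which clears S-adenosylhomocysteine, differed by -0.16 ± 0.50. Gnmt, which methylates glycine and is best known from liver, read 7.75, 7.67 and 7.92 in ESC and 7.29, 7.40 and 6.85 in NPC. Its groups did not overlap, but its change of -0.60 ± 0.22 passed neither without the block (adjusted p = 0.123) nor with it (adjusted p = 0.100). Nnmt, which methylates nicotinamide, was dim on every array, with values from 4.03 to 4.78. So 2 of the 8 measured genes of this group fell and 0 rose (25% called, against 20.6% of all genes).

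Serine synthesis went the other way for 2 of its 3 enzymes (66.7% called, against 20.6% of all genes). Phgdh, the first enzyme of the pathway from glycolysis to serine, read 12.03, 12.06 and 12.10 in ESC and 13.11, 13.29 and 12.78 in NPC. The NPC samples were all above the ESC samples, and the rise was 1.00 ± 0.20 (adjusted p = 0.0184), 1.99-fold. Its second probe gave 0.85 ± 0.21 and passed as well (adjusted p = 0.0438 over all named probes). Psat1, the transaminase of the second step, read 12.88, 13.20 and 13.23 in ESC and 14.09, 14.46 and 14.00 in NPC, a rise of 1.08 ± 0.22 (adjusted p = 0.0183). Its NPC values too lay above all ESC values. Psph, the phosphatase of the last step, differed by 0.18 ± 0.25 with overlapping groups. The call of Phgdh held in 1 of the 6 fits with 1 array left out, that without NPC replicate 3, and reached an adjusted p of 0.0850 without ESC replicate 1; the call of Psat1 ended without ESC replicate 1 (0.0844), NPC replicate 1 (0.0571) and NPC replicate 2 (0.0662).

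Glycine metabolism beyond serine was measured by Gcat, which makes glycine and acetyl-CoA from the product of Tdh, and by 3 parts of the glycine cleavage system, which degrades glycine. Gcat read 11.85, 11.91 and 12.34 in ESC and 11.26, 11.35 and 11.17 in NPC. All NPC values were lower, yet the change of -0.77 ± 0.21 sat at the threshold, missing it in the fit without the block (adjusted p = 0.0503) and passing with it (adjusted p = 0.0413). It also passed without the block under 4 other settings, with adjusted p-values from 0.0434 with the trended robust prior to 0.0498 with values under 6 set to 6, and in none of the 6 fits with 1 array left out (0.0886 to 0.135). Gldc, the decarboxylase of the cleavage system, read 14.16, 13.97 and 13.19 in ESC and 13.53, 13.51 and 12.40 in NPC. Its groups overlapped, while each NPC sample read lower than the ESC sample of the same number, and its difference of -0.63 passed with the block alone (adjusted p = 0.398 and 0.0355). Gcsh, the lipoyl carrier protein of the system, stayed between 13.58 and 13.93 on all arrays. Amt, its aminomethyltransferase, ranged from 4.20 to 7.91 in ESC and from 2.64 to 7.60 in NPC, with the highest value of each group in replicate 3, and did not pass.

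In the folate cycle, 1 of 7 enzymes rose and 1 fell (28.6% called, against 20.6% of all genes). Mthfd2l, a mitochondrial methylenetetrahydrofolate dehydrogenase, read 8.80, 8.95 and 8.20 in ESC and 11.03, 11.11 and 10.74 in NPC. The groups were far apart, with a rise of 2.31 ± 0.26 (adjusted p = 0.00227), 4.95-fold. Its paralog Mthfd2, known for high levels in embryonic and proliferating cells, read 9.62, 9.30 and 11.20 in ESC and 9.83, 9.84 and 10.93 in NPC. The groups of Mthfd2 overlapped, and its difference was 0.16 ± 0.59; the difference between both paralogs was not tested.

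Mthfd1, the cytosolic enzyme that interconverts one-carbon folates, read 12.95, 12.61 and 12.23 in ESC and 11.59, 11.46 and 10.84 in NPC. It fell by 1.30 ± 0.30 (adjusted p = 0.0305), without overlap, but the call held only without ESC replicate 3 among the 6 fits with 1 array left out (highest adjusted p 0.114, without ESC replicate 1). Values under 6 set to 6 ended it too (adjusted p = 0.0685), although all values of Mthfd1 lie above 6. Shmt1, the cytosolic serine hydroxymethyltransferase that moves a carbon from serine to folate, read 11.00, 10.10 and 11.58 in ESC and 8.79, 8.52 and 9.79 in NPC. Every NPC value of Shmt1 was below every ESC value, and its change of -1.86 ± 0.50 missed the threshold without the block (adjusted p = 0.0504) and passed with it (adjusted p = 0.00385), as it did without it when only genes with a mean of at least 6 were tested (adjusted p = 0.0391). Shmt1 did not pass with values under 6 set to 6 (adjusted p = 0.132) or with the mean of all its probes (-1.58, adjusted p = 0.215). Among the 6 fits with 1 array left out, it passed only without ESC replicate 2 (0.0336) or NPC replicate 3 (0.0331). The other probe of Shmt1 gave -1.29 ± 1.03 without a call. The mitochondrial counterparts Shmt2, with -0.14 ± 0.38, and Mthfd1l, with -0.20 ± 0.39, had overlapping groups, and so had Tyms, thymidylate synthase, with -0.19 ± 0.27.

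Polyamine genes fell in 2 of 4 cases and rose in 0 (50% called, against 20.6% of all genes). Srm, spermidine synthase, had the smallest SE of the called enzymes and read 14.81, 14.89 and 14.79 in ESC and 13.22, 13.24 and 13.18 in NPC. It fell by 1.62 ± 0.16 (adjusted p = 0.00141), 3.07-fold, and its other probe fell by 1.95 ± 0.25 (adjusted p = 0.0045 over all named probes). Sat1, which acetylates spermidine and spermine for breakdown or export, read 11.73, 10.61 and 11.92 in ESC and 9.45, 8.86 and 9.82 in NPC. The fall of 2.04 ± 0.44 (adjusted p = 0.0229) was 4.12-fold with no overlap; it held without ESC replicate 2 or NPC replicate 3 and ended when any of the other 4 arrays was left out (highest adjusted p 0.0945, without ESC replicate 1). It ended as well with values under 6 set to 6 (adjusted p = 0.0705), although all values of Sat1 lie above 6. Odc1, ornithine decarboxylase, which starts polyamine synthesis, read 14.22, 14.42 and 13.89 in ESC and 14.24, 14.26 and 13.78 in NPC, a difference of -0.08 ± 0.24. Sms, spermine synthase, differed by -0.39 ± 0.22 (adjusted p = 0.309), and its 3 probes gave values of both signs without a call. For Amd1, the S-adenosylmethionine decarboxylase, no probe was named, but 3 probes were named for Amd2, for which the gene table lists Amd1 as another name. Amd2, chosen after its values were seen, gave -0.36, -0.86 and -1.24 by probe, none past the threshold, and whether these probes read Amd1 is uncertain.

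**Figure D2:**
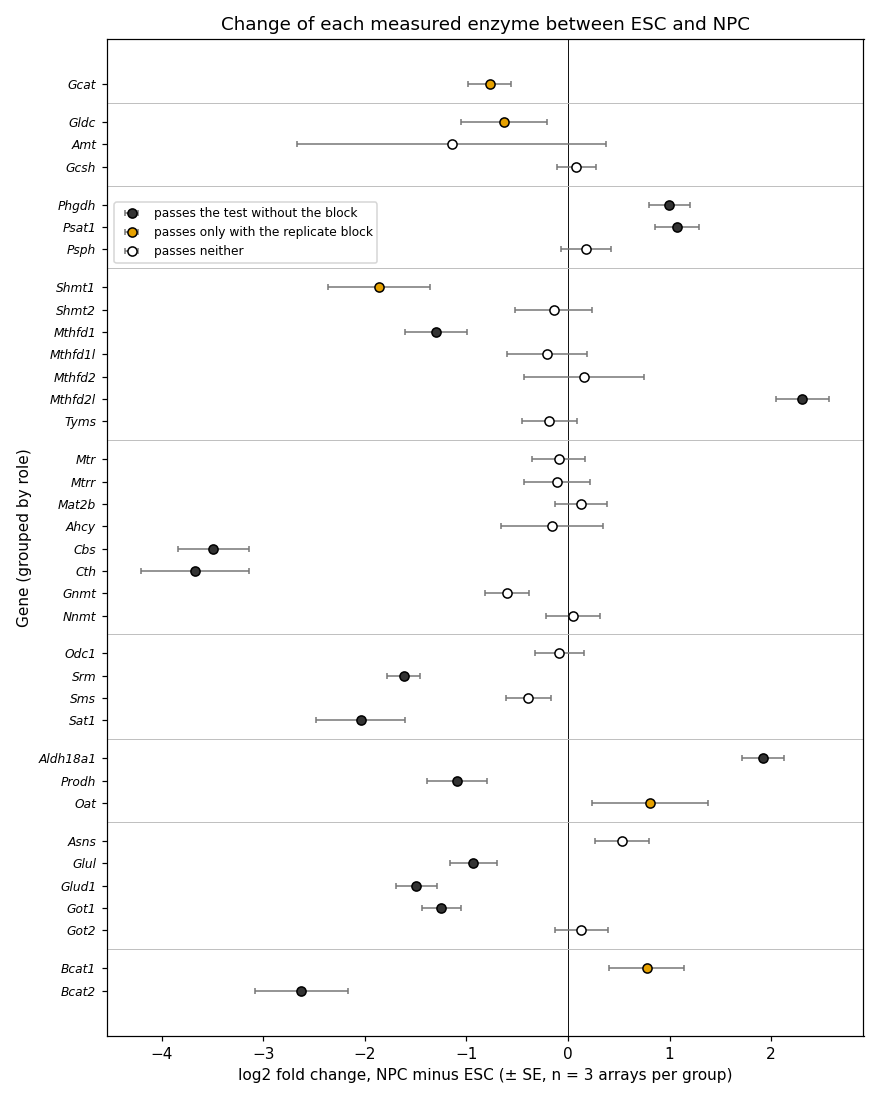
Log2 fold change of NPC minus ESC (horizontal axis, points) with its SE (bars, n = 3 arrays per group) for the 36 measured enzymes, grouped by role. Black points passed the test without the block (4 higher, 10 lower), orange points passed with the replicate block alone (5 genes) and open points passed neither.

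Proline metabolism moved in both directions. Aldh18a1, pyrroline-5-carboxylate synthase, which turns glutamate into the shared precursor of proline and ornithine, read 8.68, 8.25 and 8.64 in ESC and 10.48, 10.57 and 10.27 in NPC. The groups were separate and the rise was 1.92 ± 0.21 (adjusted p = 0.00188), 3.78-fold. Prodh, the mitochondrial enzyme that degrades proline, read 11.37, 11.53 and 11.12 in ESC and 10.44, 10.59 and 9.69 in NPC. Its fall of 1.10 ± 0.30 sat at the threshold (adjusted p = 0.0498) and was lost in each of the 6 fits with 1 array left out, with values from 0.0562 without NPC replicate 3 to 0.159 without ESC replicate 1. It missed the threshold with values under 6 set to 6 (0.0985) and with the trended robust prior (0.0504), and passed with the block (adjusted p = 0.0132). Oat, which links ornithine to the same precursor, read 9.34, 8.28 and 9.93 in ESC and 9.79, 9.32 and 10.86 in NPC. Here the groups overlapped but each same-numbered pair was higher in NPC, and the difference of 0.81 passed with the block alone (adjusted p = 0.421 and 0.0331).

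Of the 5 measured genes of glutamate, glutamine, asparagine and aspartate metabolism, 3 fell and 0 rose (60% called, against 20.6% of all genes). Glud1, glutamate dehydrogenase, read 13.64, 13.69 and 13.38 in ESC and 12.17, 12.23 and 11.83 in NPC. It fell by 1.49 ± 0.20 (adjusted p = 0.00449), 2.81-fold, and its second probe fell by 1.98 ± 0.31 (adjusted p = 0.0091 over all named probes). Got1, the cytosolic aspartate aminotransferase of the malate-aspartate shuttle, read 13.73, 13.88 and 13.68 in ESC and 12.51, 12.71 and 12.32 in NPC, a fall of 1.25 ± 0.19 (adjusted p = 0.00673). Neither gene had overlapping groups. The mitochondrial aspartate aminotransferase Got2 read between 11.88 and 12.57 on all 6 arrays and differed by 0.13 ± 0.26. Glul, glutamine synthetase, read 13.03, 13.29 and 12.68 in ESC and 12.10, 12.21 and 11.89 in NPC. Its fall of 0.93 ± 0.23 (adjusted p = 0.0367) held in 1 of 6 fits with 1 array left out, that without ESC replicate 3 (highest adjusted p 0.134, without ESC replicate 1), and ended with values under 6 set to 6 (adjusted p = 0.0514). Asns, asparagine synthetase, a classic target of the stress factor ATF4, read 12.91, 13.48 and 13.47 in ESC and 13.53, 14.17 and 13.76 in NPC. The NPC values were just above the ESC values, but the difference of 0.53 ± 0.27 passed neither without the block (adjusted p = 0.254) nor with it (adjusted p = 0.0626).

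The branched-chain aminotransferases start the breakdown of leucine, isoleucine and valine. Bcat2, the mitochondrial form, read 13.02, 13.26 and 12.27 in ESC and 10.51, 10.79 and 9.39 in NPC. It fell by 2.63 ± 0.46 (adjusted p = 0.0109), 6.18-fold without overlap, and without ESC replicate 1 the adjusted p was 0.0531. Bcat1, the cytosolic form, known from brain, read 8.76, 9.16 and 8.32 in ESC and 9.49, 10.08 and 8.98 in NPC. The groups overlapped, and the difference of 0.77 ± 0.37 needed the block to pass (adjusted p = 0.225 without and 0.0186 with it). Its other probes gave -0.67 ± 1.48 and -0.49 ± 1.74, errors too wide to give a direction. Whether Bcat1 and Bcat2 changed differently was not tested.

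Several enzymes had probes on which replicate 3 of both groups stood apart. The second probe of Psat1 read 6.11, 4.95 and 12.28 in ESC and 5.54, 5.63 and 12.67 in NPC. Replicate 3 was thus higher than the mean of the other replicates by 6.75 in ESC and 7.08 in NPC, and the difference between the groups was 0.17 ± 2.75. Another probe of Odc1 read 9.79, 6.21 and 13.85 in ESC and 6.77, 5.71 and 13.64 in NPC, whereas 3 probes of the same gene gave changes from -0.10 to 0.11. The pattern was also seen on both other probes of Ahcy and of Bcat1, and on the probe used for Amt. Of the 57 probes of the measured enzymes, 7 were higher in replicate 3 by at least 2 in both groups, 12.3% against 5.55% of all named probes, and 0 were lower by as much. Among the 36 probes used here 1 was of this kind, that of Amt (2.78%), against 3.11% of the probes used for all genes. Among the 21 others 6 were (28.6%). Over all genes, 1701 of the 30626 named probes were of this kind, and 680 of these were among the 21893 probes used. The labels give no slide or scan, so what sets replicate 3 apart was not tested. When all probes of a gene were averaged, the change of Psat1 was 0.62 and did not pass (adjusted p = 0.826).

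**Figure D3:**
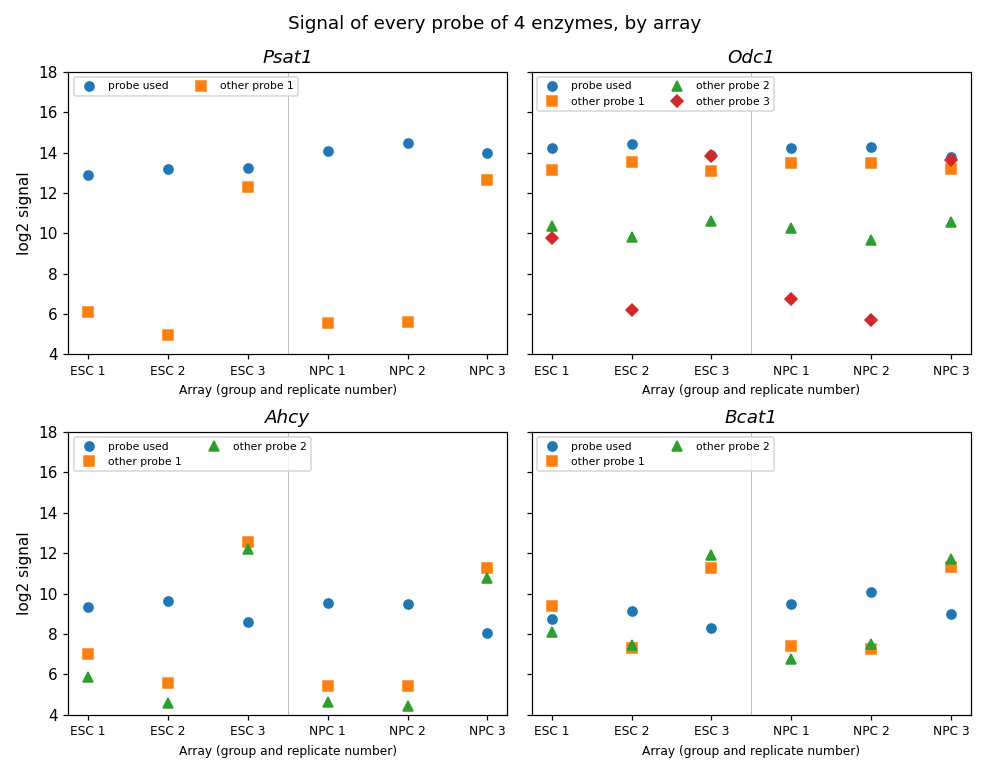
Log2 signal (vertical axis) of each probe of Psat1, Odc1, Ahcy and Bcat1 on the 6 arrays (horizontal axis, group and replicate number). Some of the other probes are higher in replicate 3 of both groups, for Psat1 by 6.75 in ESC and 7.08 in NPC; the SD of the probe used within a group ran from 0.193 (Psat1, ESC) to 0.828 (Ahcy, NPC).

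Other genes of the same pathways were taken from lists of 102 genes, of which 95 were measured; 10 rose and 15 fell, together 26.3% against the 20.6% of all genes. With the replicate block 16 rose and 24 fell, together 42.1% against 35.7% of all genes. The falls numbered 7 without ESC replicate 1, 6 without NPC replicate 1 and 8 without NPC replicate 2. Of 15 folate genes 1 rose and 4 fell (33.3% called). Folr1, a folate receptor, read 12.62, 13.23 and 12.77 in ESC and 8.71, 7.78 and 7.98 in NPC. The groups of Folr1 were widely separated, and its fall of 4.71 ± 0.32 (adjusted p = 0.000385) exceeded that of any listed enzyme or other gene of these lists. Aldh1l2, the mitochondrial 10-formyltetrahydrofolate dehydrogenase, rose by 2.91 ± 0.39 (adjusted p = 0.00411) from dim values of 2.56 to 3.33 in ESC, and with values under 6 set to 6 its change was 0.14 and did not pass.

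Of 14 methionine-related genes 1 rose and 2 fell, 21.4% and so near the 20.6% of all genes. Gamt, which uses S-adenosylmethionine to make creatine, read 8.56, 8.90 and 8.60 in ESC and 10.68, 11.23 and 10.82 in NPC, a rise of 2.23 ± 0.23 (adjusted p = 0.00149) with separate groups. Mri1, of methionine salvage, fell by 1.07 ± 0.20 (adjusted p = 0.0137), with adjusted p-values of 0.0525 without ESC replicate 1 and 0.0521 without NPC replicate 2. Of 7 other threonine, serine and glycine genes 2 rose and 0 fell (28.6% called). Srr, serine racemase, which makes D-serine in brain, read 5.19, 6.22 and 4.41 in ESC and 9.62, 9.97 and 8.46 in NPC, and rose by 4.08 ± 0.60 (adjusted p = 0.00563), or by 3.28 with values under 6 set to 6. With the mean of its 2 probes the change of Srr was 2.53 and did not pass (adjusted p = 0.0779). Tha1, threonine aldolase, which splits threonine into glycine and acetaldehyde, rose by 1.97 ± 0.39 (adjusted p = 0.0172), but all of its values lay below 6 and with that floor no change was left; its call also ended without ESC replicate 1, NPC replicate 1 or NPC replicate 2 (highest adjusted p 0.0743).

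Of 16 polyamine genes 1 rose and 2 fell, 18.8% and so near the 20.6% of all genes. Sat2, a paralog of Sat1, read 7.75, 7.66 and 7.90 in ESC and 9.08, 9.28 and 9.41 in NPC, rising by 1.48 ± 0.19 (adjusted p = 0.00321) where Sat1 fell. With the mean of its 2 probes Sat2 did not pass (1.10, adjusted p = 0.387). Dohh, which completes hypusine on eIF5A from spermidine, fell by 1.41 ± 0.30 (adjusted p = 0.0223), a call that ended without ESC replicate 1, ESC replicate 2 or NPC replicate 1 (highest adjusted p 0.0767), with values under 6 set to 6 (adjusted p = 0.0545) and with the mean of its 3 probes (-0.49, adjusted p = 0.234).

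Of 9 proline and urea cycle genes 1 rose and 2 fell (33.3% called, against 20.6% of all genes). Ass1, argininosuccinate synthase, read 12.28, 12.57 and 11.30 in ESC and 8.84, 8.88 and 7.93 in NPC. It fell by 3.50 ± 0.44 (adjusted p = 0.00318), 11.3-fold without overlap. P4ha1, a prolyl hydroxylase of collagen, rose by 1.62 ± 0.17 (adjusted p = 0.00154). Pycrl, which like the enzyme of Pycr1 makes proline from pyrroline-5-carboxylate, differed by 0.77 ± 0.27 and passed with the block alone (adjusted p = 0.105 and 0.0183). Of 11 glutamate and aspartate genes 2 rose and 2 fell (36.4% called). Gad2, a glutamate decarboxylase of GABA neurons, rose by 3.41 ± 0.44 (adjusted p = 0.00371), and Aspa, which cleaves N-acetylaspartate, fell by 1.81 ± 0.39 (adjusted p = 0.0243). Both rest on dim signals, as their changes with values under 6 set to 6 were 0.29 and -0.02. The call of Aspa also ended without ESC replicate 1, NPC replicate 1 or NPC replicate 2 (highest adjusted p 0.0943). Of 10 other branched-chain genes 0 passed by limma without the block. With the block 3 did, 30% against 35.7% of all genes.

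The 13 genes of the amino acid stress response around ATF4 split, with 2 that rose and 3 that fell (38.5% called, against 20.6% of all genes). Atf5 rose by 1.59 ± 0.30 (adjusted p = 0.0153), a call that ended without ESC replicate 1, NPC replicate 1 or NPC replicate 2 (highest adjusted p 0.0631). Nupr1, a stress-induced chromatin protein, read 8.33, 8.18 and 10.72 in ESC and 5.17, 5.51 and 5.66 in NPC. It fell by 3.63 ± 0.71 (adjusted p = 0.0164), with the highest ESC value in replicate 3, and did not pass without NPC replicate 1 (0.0730), without NPC replicate 2 (0.0553) or with values under 6 set to 6 (0.0914). Atf4 itself, named after its values were seen, differed by 0.64 ± 0.27 and did not pass (adjusted p = 0.167).

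**Figure D4:**
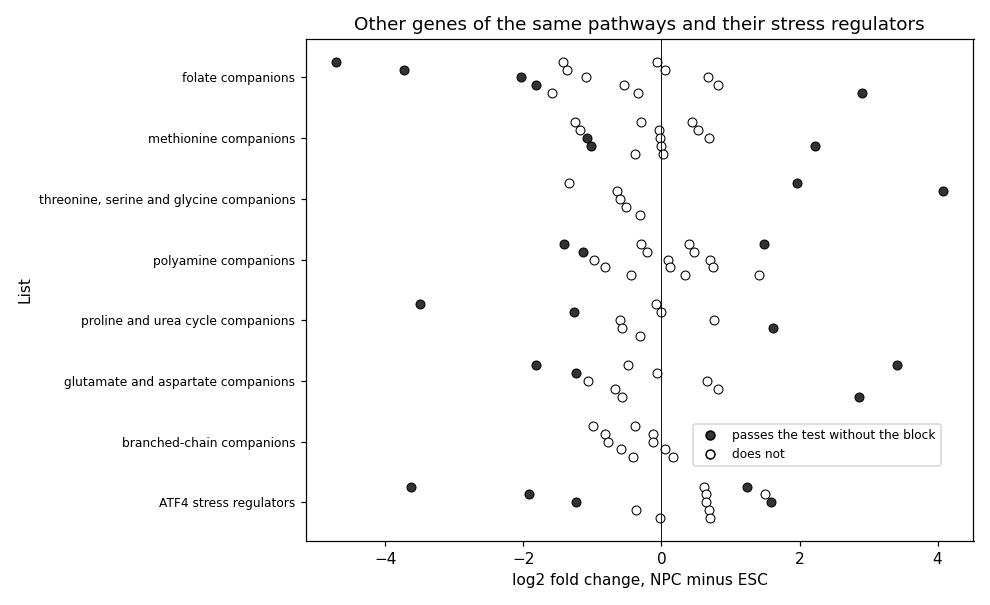
Log2 fold change of NPC minus ESC (horizontal axis) of the 95 measured genes of the lists (rows), 1 point per gene; black points passed the test without the block (10 higher, 15 lower). Folr1, at -4.71, and Srr, at 4.08, mark the ends of the range.

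Promoters of 36 of the 41 enzymes, 250 bases before to 50 after the start site, were in the RefSeq table of build GRCm38.p6 and were searched for a pair of motifs on both strands, to show where enzymes that moved in common or apart share the letters bound by ATF4 or by E-box factors. The core of the CCAAT-enhancer/ATF response element, TGATGNAA, was found in 3 of them, and in 4.51% of all 27025 genes. The E-box CACGTG was found in 5, and in 8.09% of all genes. The windows below hold 30 bases each, 5′ to 3′ on the strand of the gene, with the motif in capitals. The first 3 hold the response element, at 23 (Asns), 102 (Got1) and 103 (Pycr1) bases before the start site, read on the opposite strand in Got1.
Asns, chr6:7693214-7693243, minus strand: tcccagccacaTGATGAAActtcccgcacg
Got1, chr19:43524689-43524718, minus strand: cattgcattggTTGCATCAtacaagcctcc
Pycr1, chr11:120643833-120643862, minus strand: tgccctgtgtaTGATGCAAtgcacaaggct
The others hold the E-box, which in Gcat lies in the first transcribed bases.
Aldh18a1, chr19:40588505-40588534, minus strand: ggagggggccgcCACGTGgagcgtgggcgc
Cbs, chr17:31637417-31637446, minus strand: cctcacgacaaaCACGTGttagacggcaga
Gcat, chr15:79030864-79030893, plus strand: ccctgcccacgtCACGTGacggggagcact
Sms, chrX:157492466-157492495, minus strand: cccagcggggttCACGTGcatttaaagaaa
Tyms, chr5:30073669-30073698, minus strand: aaccacttctgtCACGTGggggcggggtct
Of the 2 measured genes with the response element, Got1 fell and Asns did not pass. Of the 5 with an E-box, Aldh18a1 rose and Cbs fell. Gcat missed the threshold without the block (adjusted p = 0.0503) and passed with it (0.0413). Sms and Tyms passed neither without the block nor with it. A match is a description of these letters, not a site or a cause.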

How the data were processed

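Per the labels' protocols, total RNA went through 1 amplification round and was measured with Cy3 on single-colour arrays. The deposited table holds log2 values of 55681 probes on 6 arrays with 0 missing; their range fits base 2, which no label states. The sorted values of all columns were identical, so the authors had quantile normalised them, which hides a shift of most transcripts in 1 direction. The submitters' processing notes name limma, without a version. For background correction and detection calls nothing is stated.

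A single gene symbol was given by the platform annotation for 30626 probes, 0 had several and 25055 are unnamed here. For 30332 probes the Entrez ID was found in the RefSeq table of GRCm38.p6, and the symbol given there was used. The difference of NPC minus ESC was fitted without covariates in R 4.3.3 with limma 3.58.1 (lmFit, eBayes, two-sided). The test was also tried on simulated data, whose outcome is not used here. The titles number the biological replicates, and same-numbered arrays deviated from their group means together (r = 0.189, 0.721 and 0.768 across genes, all above 0.1), though NPC replicate 1 correlated more with ESC replicate 2 (0.402) than with ESC replicate 1. Since all 3 same-numbered pairs passed 0.1, the number was taken to pair the arrays and used as a block in an alternative. The other alternatives set values under 6 to 6, kept only genes with a mean of at least 6, averaged all probes of a gene, used a trended robust prior or left out 1 array. The enzymes, lists and tests were chosen with earlier results of these data known. All listed enzymes could be named; of the other lists, the largest rise and the largest fall that passed, and genes acting on the same step as a listed enzyme.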

Additional observations from a re-analysis of the deposited data

How the results depend on the processing

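The 4 rises and 10 falls among the listed enzymes became 6 and 13 with the replicate block, 4 and 7 with values under 6 set to 6, 4 and 12 with only genes of a mean of at least 6, 3 and 10 with the mean of all probes, and 4 and 10 with the trended robust prior. In both of the latter, Prodh lost its call (an adjusted p just above the threshold, and 0.0504) and Gcat gained one (0.0498 and 0.0434). Leaving out 1 array gave 2 to 4 rises and 5 to 8 falls. Over all genes, 2423 higher and 2089 lower became 4147 and 3660 with the replicate block, 1527 and 1297 with values under 6 set to 6, and 1852 and 1380 with only genes of a mean of at least 6; leaving out 1 array gave 1475 to 2644 and 1289 to 1923. Of the other genes of the pathways, 10 and 15 became 16 and 24 with the block, and 8 fell with values under 6 set to 6; leaving out 1 array gave 7 to 11 rises and 6 to 13 falls. The set of genes tested and the number of arrays differ in these fits by construction. For Mthfd1, Sat1, Glul, Prodh and Dohh, setting values under 6 to 6 altered no value and left the change the same. Only the fit over all genes differed for them. Otherwise the cause was not tested. No called enzyme changed sign under any of these alternatives. With the mean of all probes the sign turned for Gcsh (-0.19), Mtr (0.14), Nnmt (-0.28), Bcat1 (-0.13) and Atf4 (-0.18), none of them called. With 1 array left out the change ran through 0 for Shmt2 (-0.44 to 0.083), Mthfd1l (-0.50 to 0.087), Mthfd2 (-0.21 to 0.74), Mtr (-0.30 to 0.11), Mtrr (-0.30 to 0.18), Mat2b (-0.0090 to 0.30), Ahcy (-0.46 to 0.32), Nnmt (-0.20 to 0.18), Odc1 (-0.23 to 0.071) and Got2 (-0.056 to 0.30), again without a call. Among the enzymes the block lost no call and changed none besides those given; over all genes, 15 called without it were not called with it. Detection above background is unknown here, so Amt and Nnmt, and dim genes of the other lists, have no firm fold.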
